A study of Homo sapiens with 6 samples.

Results

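Long intergenic non-coding RNAs (lincRNAs) are transcripts that lie between protein-coding genes and, for most of them, encode no known protein. Many carry only the provisional symbol LINC and a number, given until a function is known. Of the 15651 genes in the expression table of MDA-MB-231 cells, 247 bear a LINC symbol that does not end in an antisense suffix. Described here are the 164 of these whose normalized count averaged 10 or more over all 6 libraries, and the other 83 lay under that mean. The members were thus chosen by their mean level over both groups. The members just inside the limit were LINC00211 (mean 10.1), LINC01301 (10.3) and LINC00202-1 (10.3), and the LINC genes just outside were LINC01478 (9.97), LINC00471 (9.78) and LINC00989 (9.44). All 164 passed the filter on low values (4 or more normalized counts in 3 or more libraries), which left 15246 genes to test.

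The libraries come from MDA-MB-231, an established line of human triple-negative breast cancer (TNBC) cells with mesenchymal character, grown in 1 medium and used as a single line. Cells of the control group received DMSO, the solvent, and cells of the other group received BRL-50481, an inhibitor of the phosphodiesterase PDE7, with 3 libraries in each group that the series record calls biological replicates. The treatment text gives 50 µM for 72 h and the treatment tag 5 µM and 48 h, so the dose and time carry that doubt. Likewise the labels describe RNA selected on oligo-dT and the series record depletion of ribosomal RNA, which bears on RNAs without a poly(A) tail. The question put to the data is which lincRNAs differ in level between BRL-50481-treated and DMSO-treated cells.

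PDE7 enzymes break down cyclic AMP, a second messenger that acts through protein kinase A and transcription factors such as CREB. Most lincRNAs are made by RNA polymerase II, are spliced and carry a poly(A) tail, but many stay at low levels because the nuclear exosome degrades them and the Integrator and cleavage complexes end their transcription early. Some act on genes beside them, some bind proteins, and some loci first named LINC were later found to encode small proteins.

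The libraries held 30750573 to 33446984 reads on genes. Libraries of the same group were farther apart than counting error allows. Chi-square divided by its degrees of freedom was 2.63 to 3.53 for pairs of BRL-50481 libraries and 3.96 to 21.9 for pairs of DMSO libraries, and DMSO replicate 1 lay farthest out. VIM, CD44, AXL and EGFR, markers of this line, had normalized counts of 6018 to 88612 in every library, and PGR, the progesterone receptor, had at most 7.75. ERBB2 (1606 to 1979), EPCAM (674 to 773) and the endothelial marker PECAM1 (325 to 537), which were listed as low or lacking in such cells, were nevertheless present in every library. GATA3 (166 to 299) and, at lower counts, CDH1 (31.7 to 105) were also looked for and likewise found in every library. ESR1 and the leukocyte, hepatocyte and other endothelial markers that were looked for have no row in the table. A level here is relative to the other genes of the same library, and RNA per cell was not measured.

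The LINC genes include loci with very different products and promoters, and the sequences below show the letters to which later results refer. LINC00657, now named NORAD, is known for repeated elements that bind PUMILIO proteins, which destabilize mRNAs. Its canonical GENCODE transcript of 5401 bases held 15 copies of TGTANATA, where N is any base, and bases 1480 to 1536 are shown because 2 copies, in capitals, stand almost side by side there.
LINC00657: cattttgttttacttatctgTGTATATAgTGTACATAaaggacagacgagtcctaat

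Among the 144 members matched to a GENCODE transcript, 20 had any such element and the median was 0. LINC00632, the locus from which the circular RNA CDR1-AS is made, came next with 10 in a transcript of 21234 bases.

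For promoters, RefSeq (GRCh38.p14) gave 121 members a window of 300 bases, from 250 before to 50 after the annotated start. The site of the transcription factor AP-1, searched on both strands as TGANTCA, was found in 13 of these windows (10.7%), compared with 7.76% of all 27305 promoters. Of the members called higher after treatment by the test described below, 7 of 43 held the site (16.3%), against 1 of 15 called lower (6.67%) and 5 of 63 that were not called (7.94%). These counts are small and describe letters only. The 5 windows with 2 AP-1 sites are shown, with the sites in capitals and each sequence read 5′ to 3′ on its own strand. They are LINC00346 (chr13:110870259-110870558, minus strand), LINC00704 (chr10:4678021-4678320, minus strand), LINC00152 (chr2:87455177-87455476, plus strand), LINC00460 (chr13:106376314-106376613, plus strand) and LINC00339 (chr1:22024941-22025240, plus strand).
LINC00346: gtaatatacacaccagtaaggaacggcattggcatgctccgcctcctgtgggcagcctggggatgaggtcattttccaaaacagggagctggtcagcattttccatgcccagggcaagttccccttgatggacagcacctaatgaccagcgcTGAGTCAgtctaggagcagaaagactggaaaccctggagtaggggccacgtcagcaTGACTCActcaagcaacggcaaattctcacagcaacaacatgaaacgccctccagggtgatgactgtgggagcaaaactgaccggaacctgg
LINC00704: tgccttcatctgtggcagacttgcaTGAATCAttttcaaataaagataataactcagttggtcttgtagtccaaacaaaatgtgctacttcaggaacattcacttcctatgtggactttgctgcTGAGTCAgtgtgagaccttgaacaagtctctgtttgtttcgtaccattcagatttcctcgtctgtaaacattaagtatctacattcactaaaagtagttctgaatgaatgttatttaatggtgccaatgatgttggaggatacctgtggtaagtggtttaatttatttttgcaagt
LINC00152: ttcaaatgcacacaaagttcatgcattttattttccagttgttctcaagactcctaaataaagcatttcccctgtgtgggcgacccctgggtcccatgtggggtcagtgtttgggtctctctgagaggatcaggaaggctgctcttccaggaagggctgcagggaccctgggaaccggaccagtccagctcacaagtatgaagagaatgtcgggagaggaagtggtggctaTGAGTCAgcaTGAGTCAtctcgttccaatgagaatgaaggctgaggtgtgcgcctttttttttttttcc
LINC00460: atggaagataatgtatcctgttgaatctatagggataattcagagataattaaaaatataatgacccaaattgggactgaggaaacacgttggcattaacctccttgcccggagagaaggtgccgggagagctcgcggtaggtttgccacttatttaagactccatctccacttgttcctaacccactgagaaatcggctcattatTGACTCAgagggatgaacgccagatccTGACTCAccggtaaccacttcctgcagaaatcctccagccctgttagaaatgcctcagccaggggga
LINC00339: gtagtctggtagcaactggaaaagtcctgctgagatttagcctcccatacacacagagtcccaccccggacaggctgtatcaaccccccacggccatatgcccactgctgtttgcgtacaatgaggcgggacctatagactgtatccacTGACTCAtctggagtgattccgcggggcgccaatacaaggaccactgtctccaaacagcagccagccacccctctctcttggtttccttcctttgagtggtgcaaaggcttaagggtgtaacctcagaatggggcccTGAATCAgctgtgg

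Counted from the annotated start, the sites began at positions -98 and -42 in LINC00346, -225 and -126 in LINC00704, -19 and -9 in LINC00152, -44 and -17 in LINC00460, and -101 and 37 in LINC00339. All 5 of these genes passed the test described next, 4 of them higher and LINC00152 lower in BRL-50481. Of all members 36% were higher and 11% lower, and of all genes tested 28.9% and 29.8%. These 5 genes are too few to compare with those shares. The cyclic AMP response element TGACGTCA was found in 1.65% of the member windows and in 1.98% of all promoters. The 2 members that held it, LINC00265 and LINC00630, were named after the search, and neither was called, with log2 fold changes of -0.25 and 0.21. Its shorter form TGACG, part of the full element, was found on either strand in 25.6% of member windows and 25.0% of all promoters. By call it was found in 7 of the 43 windows of members called higher (16.3%). It was found in 4 of the 15 called lower (26.7%) and 20 of the 63 not called (31.7%). These counts too are small and describe letters only.
The heat shock element (3 alternating units of GAA and TTC) was found in 0.826% of member windows and 0.487% of all promoters, and the E2F site (TTTCCCGC, TTTGGCGC, TTTCGCGC or TTTGCCGC) in 4.13% and 3.33%.

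More lincRNAs were higher than lower in BRL-50481-treated cells. With limma on log2 of the normalized count plus 1, and p-values adjusted by the Benjamini-Hochberg method over all 15246 genes, 59 members were higher (36%) and 18 were lower (11%) at an adjusted p-value under 0.05, and 87 were not called. Over all genes tested, 28.9% were higher and 29.8% were lower, and over those with a mean of at least 10, 30.3% and 31.8%. Thus the share of members called higher was somewhat over these backgrounds, and the share called lower was well under them. Both backgrounds are of unlike level, with 9792 genes at a mean of at least 300, against 22 of the 164 members. Shares by range of level are given below. The median log2 fold change was 0.31 over the members and 0.01 over all genes tested. This contrast is also one of unlike level. The medians of the other genes were 0.305, 0.204 and 0.111 at means of 10 to 30, 30 to 100 and 100 to 300. The members' median was 0.15 with quantile normalization, which left 46 members higher and 22 lower. In that run 4330 of all 15246 genes were higher and 4448 lower.

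**Figure D1:**
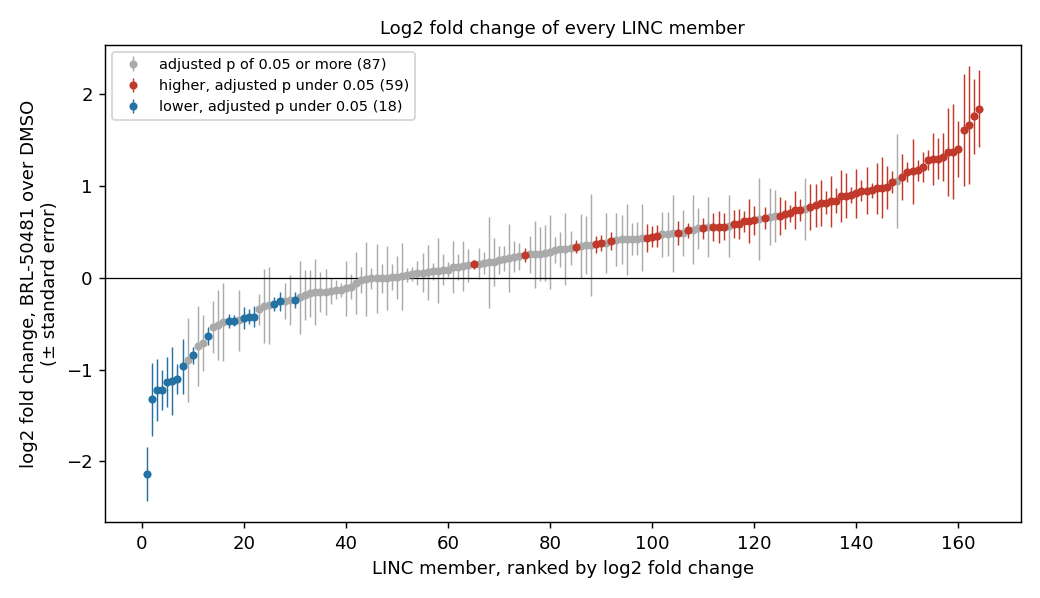
Log2 fold change (BRL-50481 over DMSO) of each of the 164 LINC members, in rank order, with its standard error as a bar. Colour marks the 59 members called higher and the 18 called lower, and members that were not called lie on both sides of 0.

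The groups did not overlap in 62 members with BRL-50481 above DMSO and in 22 with BRL-50481 below. In all genes tested these shares were 31.9% and 32.3%. Of the called members, 17 rose by more than 1 on the log2 scale and 7 fell by more than 1, against 5.06% and 2.98% of all genes tested. That background is of unlike level. A mean of 10 to 30 was found in 9 of the 17 and 3 of the 7, while 9792 of the 15246 genes tested had at least 300. In 7 members called higher the DMSO mean was under 10, so they reached the limit of 10 only through the treated libraries. The log2 fold change lay between 0.15 and 1.84 in the members called higher, with a median of 0.82, which is 1.76-fold, and between -2.13 and -0.24 in those called lower, with a median of -0.74.

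LINC genes are expressed at low levels, and the difference from other genes depended on level. The median of the members' mean normalized counts was 43.6, and 109 of the 164 lay under 100. Their median standard error on the log2 scale was 0.23, compared with 0.08 for the other genes. Among members with a mean of 10 to 30, 13 of 63 were higher and 4 lower, where all genes of that range gave 23.2% and 9.36%, and their median log2 fold change (0.28) was close to that of the other genes there (0.31). From 30 to 100, 19 of 46 members were higher and 4 lower (all genes 33.1% and 16.5%). From 100 to 300, 16 of 33 were higher and 3 lower (all genes 35.7% and 22%). At a mean of at least 300, 11 of 22 were higher and 7 lower (all genes 29.9% and 38.6%). The medians in these 3 ranges were 0.43, 0.31 and 0.12 for members and 0.20, 0.11 and -0.04 for the other genes.

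**Figure D2:**
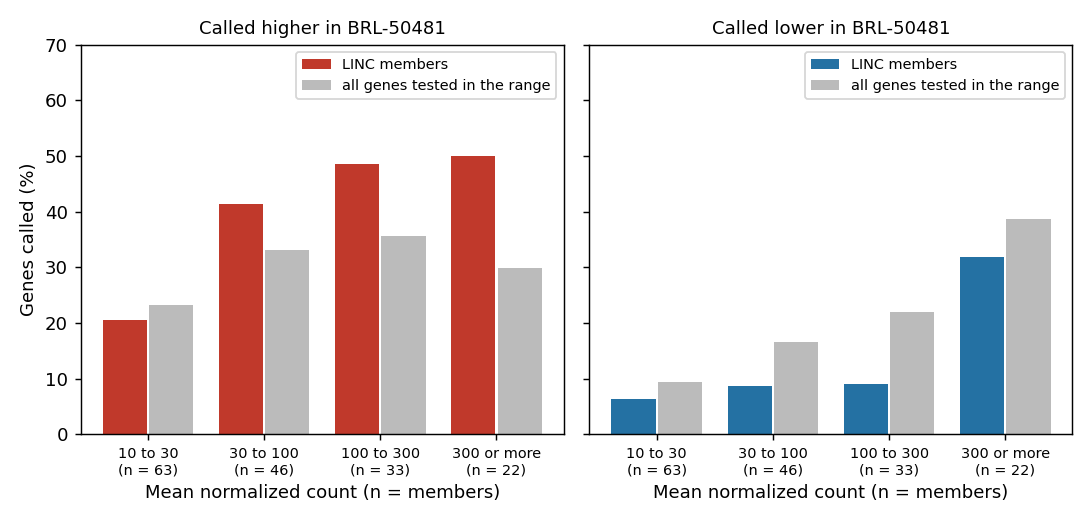
Share of genes called higher (left) and lower (right) in BRL-50481, in percent, by range of the mean normalized count, for LINC members (coloured bars) and for all genes tested in the range (grey bars). The members' share called higher lies under the grey bar at a mean of 10 to 30 (20.6% against 23.2%) and over it in the other ranges, and their share called lower lies under the grey bar in every range.

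Together the members made up a small part of each library. Their normalized counts summed to 38737, 38866 and 38585 in the DMSO libraries and to 42627, 42338 and 42679 in the BRL-50481 libraries. The BRL-50481 sums all lay above the DMSO sums, with a ratio of the means of 1.10. LINC00657 alone supplied 37.6% of the total, and without it the sums were 23218, 25067 and 24434 against 26090, 26540 and 26921, with no overlap. All members took 0.118% to 0.119% of the reads in DMSO and 0.137% to 0.138% in BRL-50481.

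The most abundant member was LINC00657 (NORAD; GENCODE, hg38, chromosome 20, 36045618 to 36051018, minus strand), an RNA required for genome stability that titrates PUMILIO proteins. Its normalized counts were 15519, 13798 and 14150 in DMSO and 16537, 15798 and 15759 in BRL-50481. Every treated library lay above every control library, but the highest control value, in DMSO replicate 1, came close to the lowest treated one. The log2 fold change was 0.15 (standard error 0.05, adjusted p = 0.0249). The call was lost without DMSO replicate 2 (0.11, adjusted p = 0.0809), DMSO replicate 3 (0.13, adjusted p = 0.102), BRL-50481 replicate 1 (0.12, adjusted p = 0.112), BRL-50481 replicate 2 (0.16, adjusted p = 0.0564) or BRL-50481 replicate 3 (0.16, adjusted p = 0.0580). The direction itself turned to -0.01 under a correction of each library for transcript length and GC content.

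LINC00152 (CYTOR), which is linked to proliferation in many cancers, fell from 2864, 3587 and 3165 to 2233, 2302 and 2372. The control libraries varied more than the treated ones, yet the lowest of them stood above all treated values. The log2 fold change was -0.47 (standard error 0.07, adjusted p = 9.57e-05). A near-identical copy of the gene, MIR4435-2HG, exists, so the split of reads between them is uncertain.

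LINC00674 rose from 1239, 1089 and 1141 to 1390, 1516 and 1484 normalized counts, a log2 fold change of 0.34 with a standard error of 0.07 (adjusted p = 0.000691). Its groups did not overlap. Per kilobase of GENCODE's canonical transcript, the mean level in DMSO was 3142 normalized counts for LINC00152, 2787 for LINC00493, 2683 for LINC00657 and 1342 for LINC00998. In BRL-50481 it was 2257, 2075, 2968 and 970 in the same order, so that of these 4 LINC00657 was the third per length in DMSO and the first in BRL-50481. LINC00674 was left out of this order because its canonical transcript has only 160 bases.

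The other members among the 6 most abundant encode small proteins by RefSeq, and all of these fell. LINC00998 is now SMIM30, a small membrane protein gene, and gave 1297, 1392 and 1382 normalized counts in DMSO and 974, 978 and 990 in BRL-50481. The treated values lay close together and far below the controls, with a log2 fold change of -0.47 with a standard error of 0.06 (adjusted p = 2.13e-05). LINC00493, now SMIM26, which encodes a mitochondrial microprotein, gave 1223, 1462 and 1412 against 1028, 940 and 1083. The groups were apart, and the log2 fold change was -0.42 (standard error 0.08, adjusted p = 0.000475). LINC01420, now NBDY, encodes a microprotein of the mRNA decapping complex and gave 967, 1076 and 1181 against 854, 914 and 872. Here the gap between the groups was narrow, at a log2 fold change of -0.28 (adjusted p = 0.00650).

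RefSeq lists 11 members under protein-coding genes, of which 3 were higher (27.3%), 4 lower (36.4%) and 4 not called, shares near the 28.9% and 29.8% of all genes tested. LINC00116, now MTLN, whose product mitoregulin sits in the mitochondrial membrane, also fell, from 324, 444 and 441 to 293, 307 and 293 (log2 fold change -0.42, adjusted p = 0.00738). DMSO replicate 1 was low among its controls and lay nearest to the treated libraries. LINC00094 (BRD3OS) was not called, with 630, 637 and 702 in DMSO and 630, 717 and 751 in BRL-50481. For LINC00341, LINC00950 and LINC01279, RefSeq's current gene has a row of its own in the table, so it is not known which transcripts these rows counted. Without the 11, 56 members were higher and 14 lower, and the median was 0.31 on the log2 scale.

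The largest rises, among called members whose groups did not overlap, were mostly in genes of low level. Some of these reached the mean of 10 through the treated libraries alone, so that the limit itself favoured a rise. In 11 members the DMSO mean was under 10, and 7 of them were called higher, LINC01140, LINC00648, LINC01583 and LINC01569 among them, while in 4 the BRL-50481 mean was under 10 and 1, LINC00312, was called lower. LINC01140 (chromosome 1, 87129765 to 87169198, plus strand) had the largest, from 3.97, 4.90 and 3.06 normalized counts to 13.1, 15.1 and 23.3. Each DMSO value rests on 3 to 5 reads. The log2 fold change was 1.84 (standard error 0.42, adjusted p = 0.00208), and it remained called with any library left out. LINC00648 followed, from 3.97, 9.80 and 4.09 to 26.2, 18.1 and 19.4, with a log2 fold change of 1.76 with a standard error of 0.41 (adjusted p = 0.00244).

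**Figure D3:**
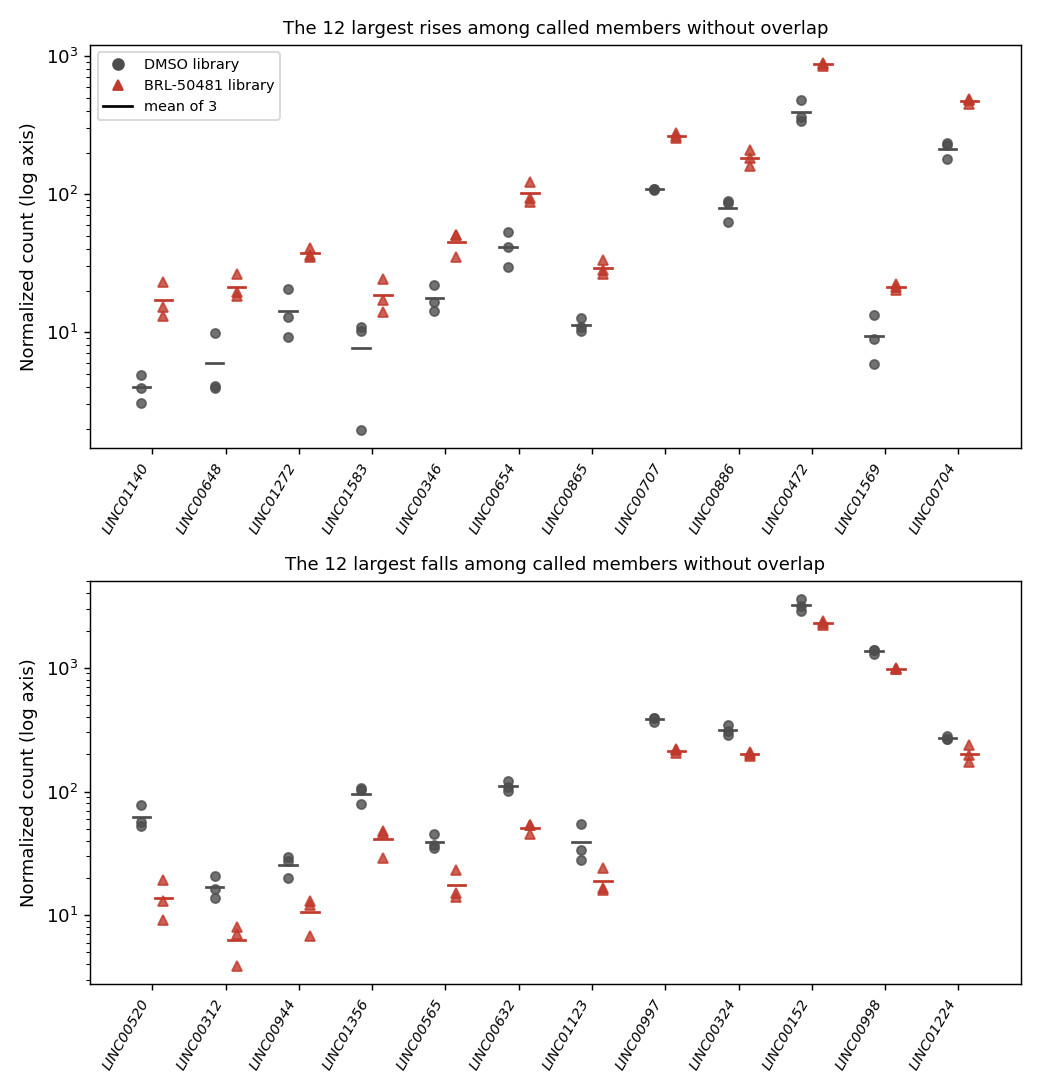
Normalized count (log axis) of each library for the 12 members with the largest rises (upper panel) and the 12 with the largest falls (lower panel) among called members whose groups do not overlap. Circles are DMSO libraries, triangles BRL-50481 libraries and short lines the means of 3. The falls end with abundant genes such as LINC00152 and LINC00998, while most of the rises lie under 100 normalized counts.

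Several rises were measured with more reads. LINC00707 (chromosome 10, 6779549 to 6842906, plus strand) gave 109, 110 and 106 normalized counts in DMSO and 263, 279 and 255 in BRL-50481. Replicates of both groups lay close together, and the difference was many times their spread, with a log2 fold change of 1.28 with a standard error of 0.11 (adjusted p = 5.60e-07). LINC00472 (chromosome 6, 71187161 to 71420745, minus strand), whose high level has been linked to a better course of breast cancer, gave 479, 360 and 340 against 883, 852 and 892. DMSO replicate 1 was the highest control and still lay far below the treated libraries, at a log2 fold change of 1.17 with a standard error of 0.11 (adjusted p = 1.37e-06). LINC00704 (MANCR), a lincRNA associated with mitosis in aggressive breast cancer cells, gave 234, 227 and 180 against 488, 479 and 450. The lowest treated value lay far above the highest control value, with a log2 fold change of 1.15 with a standard error of 0.11 (adjusted p = 1.53e-06).

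LINC00886 rose from 62.5, 89.1 and 85.8 to 208, 159 and 181 normalized counts (log2 fold change 1.21, adjusted p = 3.32e-05). LINC00654 rose from 53.6, 41.1 and 29.6 to 123, 93.7 and 88.2 (1.30, adjusted p = 0.000243). In both the lowest treated library stood well over the highest control library. LINC00346, named PRECSIT for its part in STAT3 signalling in carcinoma cells, rose from 21.8, 16.7 and 14.3 to 35.2, 50.4 and 50.4 (1.32, adjusted p = 0.000795). LINC01272 (PELATON), known from macrophages of atherosclerotic plaques, rose from 12.9, 20.6 and 9.19 to 36.2, 35.3 and 40.7 (1.40, adjusted p = 0.00157).

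The last of the named rises were at low counts. LINC00865 lay between 10.2 and 12.7 in DMSO and between 26.2 and 33.2 in BRL-50481, and LINC01569 between 5.88 and 13.3 and between 20.1 and 22.3 normalized counts, with log2 fold changes of 1.29 and 1.16. LINC01583 rests on DMSO replicate 2. Its values were 10.9, 1.96 and 10.2 in DMSO and 14.1, 17.1 and 24.2 in BRL-50481, with a log2 fold change of 1.38 (adjusted p = 0.0355). Without DMSO replicate 2 it was 0.72 (adjusted p = 0.123), and the call was also lost without BRL-50481 replicate 1 (adjusted p = 0.0587), replicate 2 (adjusted p = 0.0828) or replicate 3 (adjusted p = 0.128).

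The deepest fall among the members was that of LINC00520 (chromosome 14, 55781132 to 55796731, minus strand), also known as LEENE, an RNA that enhances nitric oxide synthase expression in endothelial cells. Its normalized counts were 78.4, 52.9 and 56.2 in DMSO and 13.1, 9.07 and 19.4 in BRL-50481. The highest treated library lay far below the lowest control. The log2 fold change was -2.13 (standard error 0.29, adjusted p = 3.80e-05), a level of 0.228 of the control, and it remained lower with any library left out (-2.39 to -1.88).

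LINC01356 fell from 79.4, 107 and 102 to 29.2, 48.3 and 46.5 (log2 fold change -1.22, adjusted p = 0.000326). LINC00632, the CDR1-AS locus, fell from 100.2, 122 and 108 to 53.4, 53.4 and 45.6 (-1.10, adjusted p = 6.27e-05). In LINC00632 the fall was -1.57 after correction for length and GC content.

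LINC00565 (SWINGN), an RNA that binds the SWI/SNF chromatin remodeller, fell from 36.7, 45.1 and 34.7 to 15.1, 14.1 and 23.3 (log2 fold change -1.13, adjusted p = 0.00293). LINC00312 (in DMSO 13.7 to 20.8 normalized counts, in BRL-50481 3.88 to 8.05) and LINC00944 (19.8 to 29.6 and 6.78 to 13.1) fell by 1.32 and 1.22 on the log2 scale. LINC01123 fell from 27.8, 54.9 and 33.7 to 16.1, 24.2 and 16.5 (-0.96, adjusted p = 0.0138). DMSO replicate 2 was the highest control, and without it the log2 fold change was -0.69 (adjusted p = 0.0772), and without BRL-50481 replicate 1 it was -0.87 (adjusted p = 0.0542).

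The remaining falls were smaller and in genes of higher level. LINC00997 (chromosome 7, 32760279 to 32762924, plus strand) gave 365, 390 and 396 normalized counts in DMSO and 215, 203 and 221 in BRL-50481, a log2 fold change of -0.84 with a standard error of 0.09 (adjusted p = 4.94e-06). LINC00324 gave 286, 311 and 342 against 199, 194 and 208 (-0.63, adjusted p = 0.000146). LINC01224 gave 267, 281 and 264 against 196, 236 and 173, with more spread after treatment (-0.43, adjusted p = 0.00716).

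Of 22 members with well-known symbols, 12 were higher (54.5%), 5 lower (22.7%) and 5 not called, where all genes tested gave 28.9% and 29.8%. These symbols were picked with earlier results known, and several are among the abundant members. Of all members with a mean of 100 to 300, 48.5% were higher and 9.09% lower. At a mean of at least 300, 50% of members were higher and 31.8% lower. LINC00467 went from 132, 176 and 158 normalized counts to 317, 326 and 314 (log2 fold change 1.04, adjusted p = 6.75e-06). LINC00339 went from 295, 301 and 335 to 587, 600.3 and 615 (0.95, adjusted p = 7.22e-07). LINC00261, a lincRNA beside the transcription factor gene FOXA2, went from 277, 316 and 304 to 500.3, 459 and 501 (0.70, adjusted p = 1.78e-05). In these genes the treated replicates lay far above the controls.

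LINC00460, whose promoter letters are shown above, rose from 18.9, 23.5 and 15.3 to 35.2, 35.3 and 42.6 normalized counts (log2 fold change 0.95, adjusted p = 0.00601). LINC01116, LINC00857 and LINC00963 rose by 0.61, 0.54 and 0.45 on the log2 scale. The nearest protein-coding gene to LINC01116, MTX2, lay 273412 bases away. LINC00511 (7.15 to 24.5 in DMSO, 14.1 to 27.2 in BRL-50481) and LINC00662 (249 to 270 and 225 to 268) overlapped between the groups and were not called, with log2 fold changes of 0.48 and -0.13. LINC01133 gave 9.80 to 27.6 and 5.82 to 11.1 (-0.74, adjusted p = 0.159). LINC00665 (83.8 to 117 and 67.4 to 78.6) was not called, at -0.34 (adjusted p = 0.0990), and was called at -0.51 with quantile normalization. LINC00473, a known target of cyclic AMP signalling, has no row in the table and so was not analysed here.

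Among the members just inside the limit, LINC01301 shows what 1 library does at such counts. It gave 14.9, 3.92 and 3.06 normalized counts in DMSO and 14.1, 14.1 and 11.6 in BRL-50481, where DMSO replicate 1 reached the treated level. The log2 fold change was 1.06 (adjusted p = 0.0925), and without DMSO replicate 1 it was 1.67 (adjusted p = 0.00663).

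The choice of members used symbols and mean level but no coordinates, although the name LINC itself refers to position. Of the 136 members with a nearest protein-coding gene in GENCODE, 18 lay on its opposite strand with starts within 5 kb, some of them overlapping it. Another 14 overlapped it on the opposite strand with starts over 5 kb apart, and 7 overlapped it on the same strand. For 110 members, the nearest protein-coding gene of GENCODE was also in the table (106 different genes). Across these pairs the log2 fold changes were weakly related (Pearson r = 0.114, Spearman rho = 0.133), with all values from the same libraries. Distance was not limited, and rho was 0.416 in the 28 pairs over 50 kb apart. It was 0.054 in 17 pairs on opposite strands with starts within 5 kb, and 0.167 in 8 with the member just downstream on the same strand. In overlapping pairs it was -0.255 on opposite strands with starts over 5 kb apart (11 pairs) and -0.314 on the same strand (6). In 40 others within 50 kb it was 0.107. Of the 42 members called higher, 12 had a neighbour that was higher (28.6%), a share like the 28.9% of all genes tested, and 8 had one that was lower (19.05%, under the 29.8% of all genes tested). Of the 8 called lower, 2 had a neighbour that was higher and 6 one that was not called, too few to compare with the background.

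**Figure D4:**
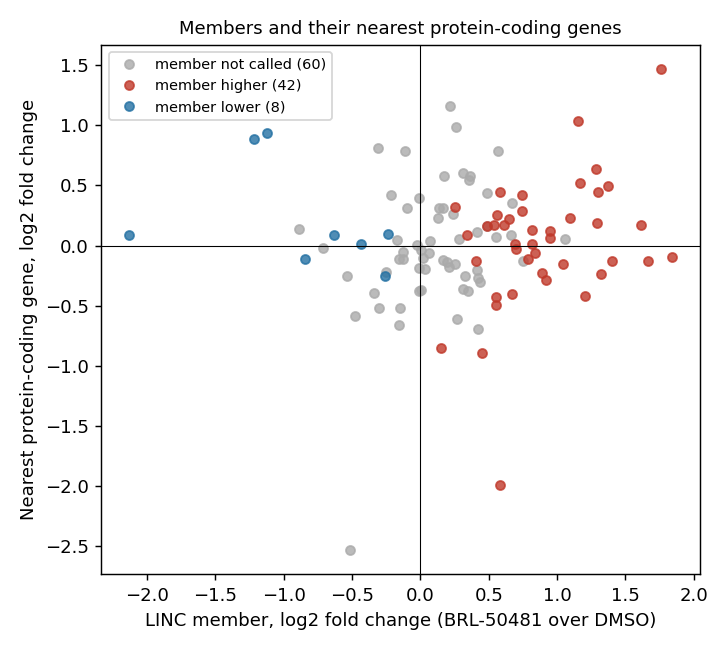
Log2 fold change (BRL-50481 over DMSO) of 110 LINC members (horizontal axis) and of the nearest protein-coding gene (vertical axis), coloured by the member's call. Neighbours of the 42 members called higher lie on both sides of 0, and the points show little slope (Pearson r = 0.114).

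Named members gave examples of each kind. OGFRL1, which LINC00472 overlaps on the opposite strand, rose by 0.52 on the log2 scale (adjusted p = 4.05e-06). AKR1E2, an aldo-keto reductase gene 108413 bases from LINC00704, rose by 1.04 (adjusted p = 0.000423), and GPCPD1, 17730 bases from LINC00654, by 0.45 (adjusted p = 0.000288). ANKRD10 near LINC00346 fell by 0.24 while the lincRNA rose. SLC16A1, the gene of the lactate transporter MCT1 and the neighbour of LINC01356, rose by 0.88 (adjusted p = 2.63e-05) while the lincRNA fell.

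KTN1, 79606 bases from LINC00520, stood at 0.08 on the log2 scale (adjusted p = 0.123) beside the lincRNA's -2.13. For LINC00324, which lies 772 bases downstream of CTC1 on the same strand, that gene's log2 fold change was 0.09 (adjusted p = 0.303). CEBPB, a transcription factor gene 54975 bases from LINC01272, had -0.13 (adjusted p = 0.153).

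In 4 members, exons overlap those of a coding gene on the same strand, so reads could belong to either. They are LINC00664 (with ZNF429), LINC01011 (NQO2), LINC01089 (RHOF) and LINC01578 (CHD2). LINC01011 and LINC01578, the latter now CHASERR, a repressor of CHD2, were called higher, with log2 fold changes of 0.67 and 0.25. Within 100 kb of each other lay 6 pairs of members, 4 of them with log2 fold changes of the same sign. The pair LINC00452 and LINC00565, picked after its values were seen, overlaps on opposite strands of chromosome 13 and moved in opposite directions, at 1.10 and -1.13. LINC01117 and LINC01116, which overlap on opposite strands of chromosome 2, were both higher, at 1.61 and 0.61, although the groups of LINC01117 overlapped (0.992, 11.8 and 6.13 normalized counts against 19.1, 10.1 and 22.3). The call of LINC01117 was lost without DMSO replicate 1 (0.86, adjusted p = 0.101), BRL-50481 replicate 1 (1.51, adjusted p = 0.119) or BRL-50481 replicate 3 (1.40, adjusted p = 0.123).

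Non-coding RNAs with names of their own, a mixed list that includes hosts of small RNAs, served as a comparison class. Of 30 tested, 10 were higher (33.3%) and 11 lower (36.7%), close to the 28.9% and 29.8% of all genes tested. Their median log2 fold change was -0.07, against 0.31 for the LINC members. The classes differed in level, with 15 of the 30 at a mean of at least 300, against 22 of the 164 members. The median of those 22 members was 0.12. The most abundant fell. MALAT1, a nuclear speckle RNA, had normalized counts of 67486, 107210 and 98919 in DMSO and 32990, 30402 and 29865 in BRL-50481 (log2 fold change -1.53, adjusted p = 3.81e-07). NEAT1, the scaffold of paraspeckles, and GAS5, a host of small nucleolar RNAs, had log2 fold changes of -0.49 and -1.13, with no overlap between the groups. This difference in median between the classes was not tested.

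Of 48 factors that trim, degrade or end such transcripts, 5 were higher (10.4%) and 22 lower (45.8%), and the median was -0.11 on the log2 scale. Of these factors 47 had a mean of at least 300, a range in which 29.9% of all genes were higher and 38.6% lower. The share called lower was thus not far from the background, and the share called higher was well under it. The subunits of the nuclear exosome, the complex that degrades nuclear RNA from its end, were called lower in 9 of 13, and the other 4 were not called. Of the exosome's adaptors 6 of 9 were lower and 1 was higher, of Integrator subunits 4 of 14 lower and 4 higher, and of cleavage and termination factors 3 of 12 lower and 9 not called. XRN2, CPSF2 and EXOSC10, the most abundant of the list, were not called, with log2 fold changes of -0.05, -0.02 and 0.05. EXOSC5, an exosome subunit chosen after its values were seen, fell from 2364, 2966 and 2871 to 1355, 1366 and 1385 normalized counts (-0.99, adjusted p = 2.45e-07). INTS3, an Integrator subunit chosen likewise, rose from 1238, 1168 and 1098 to 2048, 2120 and 2074 (0.83, adjusted p = 1.47e-07). The part of these genes in the levels of the LINC members was not tested.

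LINC transcripts were shorter than others, with a median of 1912 bases in the 144 members with a GENCODE length and 3182 over all genes. The median length was 2043 in members called higher, 1819 in those called lower and 1874 in the rest. The relation of length to the log2 fold change was weak in members (Spearman rho = 0.111, n = 144) and somewhat stronger over the other genes (0.181). With each library corrected for length and GC content, 57 of these 144 members were called higher and 17 lower, and their median was 0.34. Without the correction 51 of the 144 were higher and 17 lower. Over all 14595 genes in the corrected fit, 4141 were higher and 5499 lower, and the median was -0.04.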

How the data were processed

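RNA sequencing of 6 libraries (3 DMSO, 3 BRL-50481) was analysed from 1 table, with groups from the sample labels. Per the submitters' processing notes, tools were STAR 2.7.1a, HTSeq and DESeq2 1.28 on hg38. The deposited signal of a gene is its read count over the DESeq2 size factor of that library. The authors' mean, log2 fold change, standard error and p-value columns were not used. Within each library 100% of values were whole multiples of 1 read (tolerance 0.01 reads), so reads were recovered.

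The main test was limma 3.58.1 (R 4.3.3; lmFit, eBayes with trend) on log2(normalized count + 1), with group as the only term. Genes with at least 4 in at least 3 samples were tested, and a p-value under 0.05 after Benjamini-Hochberg adjustment was a call. EdgeR 4.0.16 and DESeq2 1.42.0 were run on the recovered reads. EdgeR called 4358 genes higher and 4574 lower, 59 and 18 of them members. DESeq2 called 4097 genes higher and 4356 lower, 56 and 17 of them members. Other pseudocounts, filters and scalings were also run, and each library was left out in turn. A length and GC correction (loess, span 0.5) and the removal of protein-coding members were added after seeing the data. The procedures were tested on simulated data. Transcripts came from GENCODE release 44 and symbols, types and promoters from RefSeq. Reads had been counted by the authors on UCSC gene models, not used here.

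The members and lists were chosen with earlier results of these data known. Members named are the 12 largest rises and falls among called members without overlap, the 6 most abundant, those nearest the limit of 10, a set of well-known LINC symbols, the neighbours, and the 3 most abundant genes of each list. Any other is named after its values were seen. Shares and levels carry counting error, and the number of libraries limits precision.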

Additional observations from a re-analysis of the deposited data

How the results depend on the processing

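Of 44 named members, 38 kept their direction and side of the threshold under every alternative run. LINC00657 turned to -0.0131 and LINC00094 to -0.0451 on the log2 scale with the length and GC correction, the first called in the main comparison and the second not. The cause was not tested. The members' median log2 fold change was 0.35 at a mean of at least 20 and 0.15 with quantile normalization, and 0.26 to 0.37 with 1 library left out. The number of members called higher was 37 among those with a mean of at least 50, which are fewer genes. No share over all genes of that level is given here. With 1 library left out 49 to 59 members were higher and 15 to 18 lower. Over all 15246 genes these runs gave 3751 to 4876 higher and 4027 to 4933 lower. Of the named RNAs, 5 to 10 were higher with 1 library left out (5 without BRL-50481 replicate 1). Of the nuclear factors, 3 were higher without the trend or with the length and GC correction, and 3 to 8 with 1 library left out (8 without DMSO replicate 1, 3 without any 1 BRL-50481 library). With the replicate number as a block, 61 members were higher and 18 lower, and of all 15246 genes 4440 were higher and 4589 lower. The labels do not say what a number marks, and the deviations of same-numbered libraries correlated at 0.121, 0.104 and 0.0514, so they were not taken as pairs, and BRL-50481 replicate 3 correlated best with DMSO replicate 2.

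At 3 libraries a group and a median of 43.6 normalized counts, small changes in low members could not be seen. The smallest called change was 0.77 on the log2 scale at a mean of 10 to 30 and 0.15 at 300 or more. Of the 77 called members, 22 lost the call when some 1 library was left out.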
